A study of Mus musculus with 6 samples.

Results

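The 4 opioid receptor genes and the gene of the nociceptin precursor were examined in the prefrontal cortex, the front part of the cortex, of aged mice with and without anesthesia and abdominal surgery. The members were the genes whose Ensembl identifiers map to the symbols Oprm1, Oprd1, Oprk1, Oprl1 and Pnoc. All 5 had a value in every sample, among 21006 genes in all, and all 5 passed the filter on low values (a mean of at least 0.1 FPKM over the 6 samples) among 18185 genes that did so. FPKM divides the fragments sequenced from a gene by its exon length and by the depth of the library. This puts genes of different length on one scale. It does not correct for other differences between genes, such as GC content, so orders of genes by FPKM are approximate.

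All animals were male wild-type C57BL/6 mice with a labelled age of 18 months. The PND group (n = 3, named for postoperative neurocognitive disorder) breathed 1.5% isoflurane for 30 min and then had an exploratory laparotomy of 30 min under isoflurane, which is the opening and inspection of the abdomen. The incision of these mice was disinfected with povidone iodine and treated with a 2.5% lidocaine cream at the end of the operation and daily over 3 days. The labels and methods name no opioid drug. The CON group (n = 3) had neither anesthesia nor operation. Per the study's methods, the mice of both groups went through fear conditioning with foot shocks, an open field test and a Barnes maze, and were deeply anesthetized with isoflurane before the tissue was taken. The tissue was taken shortly after the Barnes maze test, days after the operation, following perfusion with saline. Earlier times were not sampled. Anesthesia, surgery and lidocaine came together in the PND group, and their parts in any difference cannot be told apart.

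Opioid receptors are membrane receptors that couple to inhibitory G proteins. When a peptide binds, they lower cyclic AMP, open inward-rectifier potassium channels and close calcium channels, which reduces firing and transmitter release. Oprm1 encodes the mu receptor, the main target of morphine and related analgesics. Oprd1 encodes the delta receptor, which binds enkephalins with high affinity. Oprk1 encodes the kappa receptor, whose main endogenous ligands are dynorphins. Oprl1 encodes the nociceptin receptor, a relative of the other three that binds nociceptin and has little affinity for the classical opioid peptides. In cortex, Pnoc is known as a gene of a subset of GABA interneurons.

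The peptide-coding sequences are shown first, because they set the nociceptin precursor apart from the precursors of the classical opioid peptides. In the reference genome GRCm38 with GENCODE M21, the coding sequence of Pnoc held 1 Phe-Gly-Gly-Phe stretch directly after a pair of basic codons, and no Tyr-Gly-Gly-Phe stretch. Pdyn, the dynorphin precursor, held 3 Tyr-Gly-Gly-Phe stretches after basic pairs, and Penk, the enkephalin precursor, held 7. The lines below give the coding strand from 5′ to 3′ for nociceptin (chr14:65404842-65404892, minus strand), dynorphin A (chr2:129688094-129688144, minus strand) and the first enkephalin stretch of Penk (chr4:4134334-4134348, minus strand). Capitals mark the first 4 codons, in which nociceptin has phenylalanine in first place and the other peptides have tyrosine.
Pnoc, nociceptin: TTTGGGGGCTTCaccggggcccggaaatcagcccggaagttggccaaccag
Pdyn, dynorphin A: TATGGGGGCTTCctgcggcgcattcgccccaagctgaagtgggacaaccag
Penk, first enkephalin: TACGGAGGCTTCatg

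The receptor sequences are shown because near-identical stretches could divide fragments between the 4 genes. Over their coding sequences the receptors shared between 59.0% of aligned bases (Oprm1 and Oprl1) and 65.5% (Oprm1 and Oprd1). The longest run of identical bases shared by any pair over all annotated transcripts was 25 bases (Oprk1 and Oprl1). The most similar window of 60 coding bases is printed below, with capitals at the 43 positions that are identical in all 4. It crosses an intron in each gene, and the coordinates give its outer ends: Oprm1 at chr10:6789157-6828942, plus strand, Oprd1 at chr4:132117411-132144160, minus strand, Oprk1 at chr1:5589304-5598647, plus strand, and Oprl1 at chr2:181715945-181718434, plus strand.
Oprm1: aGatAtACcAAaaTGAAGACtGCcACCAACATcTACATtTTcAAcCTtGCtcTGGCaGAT
Oprd1: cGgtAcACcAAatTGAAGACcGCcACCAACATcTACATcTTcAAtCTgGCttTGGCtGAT
Oprk1: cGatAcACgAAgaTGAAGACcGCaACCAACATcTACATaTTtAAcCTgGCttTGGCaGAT
Oprl1: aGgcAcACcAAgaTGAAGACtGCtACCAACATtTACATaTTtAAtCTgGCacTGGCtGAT

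The depth was estimated from the steps in which low values moved, and lay between 7179964 and 9367951 effective fragments per sample. Fragment numbers below come from this estimate and cover counting error only. The comparison of PND with CON used limma on log2(FPKM + 0.1), and the cut-off, after the study, asked for a log2 fold change beyond 1 in either direction and an unadjusted p below 0.05. Of the 18185 genes tested, 241 passed (1.33%), 569 had an unadjusted p below 0.05 (3.13%), and 2 had a Benjamini-Hochberg adjusted p below 0.05 (0.011%).

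None of the 5 members passed the cut-off in limma (0 of 5, against 1.33% of all genes, 0.841% higher and 0.484% lower in PND), and none had an unadjusted p below 0.05 (0 of 5, against 3.13%). With voom on the estimated fragments, none passed either. The PND and CON values overlapped for all 5 members (0 of 5 without overlap, against 7.66% of all genes). The adjusted p was 0.9999 for each of the 5. Beside the interval from limma, each member was given an exact two-sided permutation test over the 6 samples, which cannot go below p = 0.1 with 3 animals against 3 and so cannot pass 0.05. In tissue samples of this kind, fewer cells of a type and less RNA per cell cannot be told apart.

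Oprd1, the delta receptor gene (ENSMUSG00000050511, chr4:132110726-132144486, minus strand), had the highest FPKM of the receptor genes. Its level was 8.12, 6.42 and 8.19 FPKM in PND replicates 1 to 3, and 5.08, 11.1 and 8.99 FPKM in CON replicates 1 to 3. The CON samples held both the lowest and the highest value, and the PND samples lay between them. The mean was 7.58 ± 1.0 FPKM in PND against 8.39 ± 3.06 FPKM in CON (SD, n = 3 each), with a log2 fold change of -0.08 (SE 0.28, exact permutation p = 0.8). The 95% interval of the fold was 0.597 to 1.49. The estimated fragments summed to 801 in PND and 776 in CON, so counting error was small beside the spread between animals.

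Oprk1, the kappa receptor gene (ENSMUSG00000025905, chr1:5588466-5606131, plus strand), had the largest difference among the receptors. It measured 1.90, 1.97 and 2.12 FPKM in the PND samples, and 1.20, 0.587 and 2.06 FPKM in the CON samples. The PND values lay close together, while CON replicate 2 was the lowest of all 6 and CON replicate 3 lay inside the PND range. The mean was 2.00 ± 0.115 FPKM in PND against 1.28 ± 0.737 FPKM in CON (SD, n = 3 each). The log2 fold change was 0.75 (SE 0.40), a 1.68-fold higher level with a 95% interval of 0.880 to 3.22. The difference did not pass in limma (adjusted p = 0.9999). The exact permutation p was 0.3, in a test that cannot go below 0.1. Among all genes tested, 1226 (6.74%) differed by at least as much in either direction. The value depended on single control animals: without CON replicate 3 the log2 fold change was 1.15 and passed the cut-off (limma adjusted p = 1.0), and without CON replicate 2 it was 0.32.

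Oprm1, the mu receptor gene (ENSMUSG00000000766, chr10:6758506-7038198, plus strand), was present at under 1.1 FPKM in every sample. It measured 0.806, 0.676 and 0.920 FPKM in PND, and 0.878, 0.437 and 1.09 FPKM in CON. As for Oprd1, the CON samples spanned the whole PND range, here with CON replicate 2 lowest and CON replicate 3 highest. The mean was 0.801 FPKM in both groups, with an SD of 0.122 in PND and 0.331 in CON (n = 3 each). The log2 fold change was 0.07 (SE 0.35, exact permutation p = 0.9), and the interval of the fold ran from 0.590 to 1.86.

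Oprl1, the nociceptin receptor gene (ENSMUSG00000027584, chr2:181715016-181720985, plus strand), measured 0.702, 0.157 and 0.735 FPKM in PND, and 0.506, 0.457 and 0.211 FPKM in CON. PND replicate 2 had the lowest value of all, and the other PND samples had the highest. The mean was 0.531 ± 0.325 FPKM in PND against 0.392 ± 0.158 FPKM in CON (SD, n = 3 each), with a log2 fold change of 0.24 (SE 0.54, exact permutation p = 0.6). The interval of the fold, 0.487 to 2.85, was the widest of the receptors, and the estimated fragments per sample were only 4.65 to 25.8.

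Pnoc, the nociceptin precursor gene (ENSMUSG00000045731, chr14:65400673-65425472, minus strand), was at the limit of detection in both groups. It measured 0.105, 0.176 and 0.049 FPKM in PND, and 0.124, 0.171 and 0.064 FPKM in CON. These values correspond to about 2, 3 and 1 fragments in either group, 6 per group, with an exact 95% Poisson interval of 2.20 to 13.1 fragments. Both groups gave the same number of fragments within this counting error, which is wide enough to hide differences of a few fragments.

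**Figure D1:**
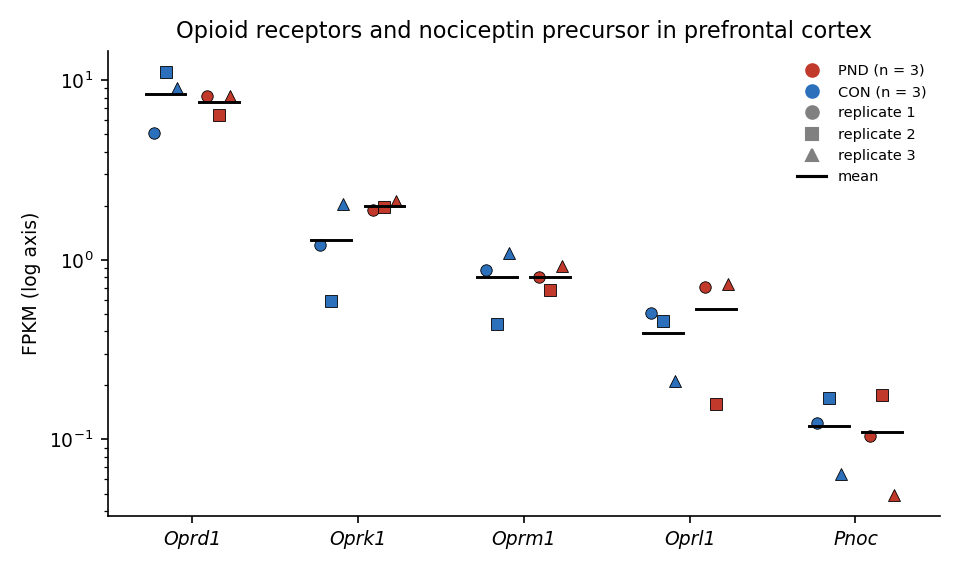
Level of each member in each animal (FPKM, log axis), with colour for the group, marker shape for the replicate number and a line at the mean of each group (n = 3). The groups overlap for all 5 genes, CON replicate 2 is the lowest sample for Oprk1 and Oprm1 and the highest for Oprd1, and Pnoc has the lowest mean of the 5.

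**Figure D2:**
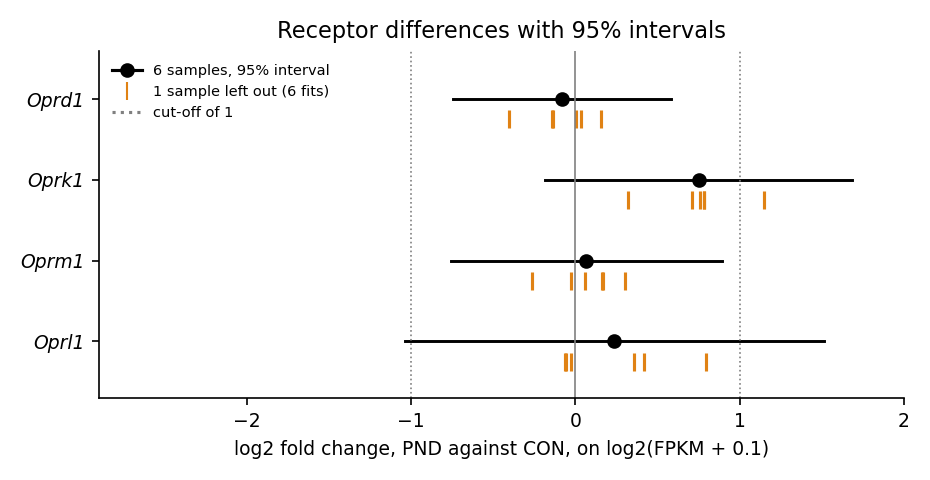
Log2 fold change of PND against CON for the 4 receptor genes on the log2(FPKM + 0.1) scale, as a point with its 95% interval from limma, with the values of the 6 fits that each leave out 1 sample as ticks and the cut-off of 1 as dotted lines. All 4 intervals include 0, and 1 tick, for Oprk1 without CON replicate 3 (1.15), lies beyond the cut-off.

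The level of Pnoc was set beside the levels of genes that mark cortical GABA interneurons. All 20 interneuron marker genes of the list used had a higher level than Pnoc in every one of the 6 samples. Their means over the samples ran from 0.596 to 104 FPKM with a median of 5.86 FPKM. In the GRCm38 annotation Pnoc has 2 transcripts, and its neighbour Zfp395, 1743 bases away, was measured at 1.14 to 1.68 FPKM (log2 fold change -0.02). Elp3, the neighbour on the other side at a distance of 104977 bases, was measured at 18.9 to 23.1 FPKM (log2 fold change 0.07).

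Within each animal the receptors kept nearly one order of levels. Oprd1 was above Oprk1 in 6 of 6 samples, by 2.28 on the log2(FPKM + 0.1) scale (SD 0.87, 4.86-fold). Oprk1 was above Oprm1 in 6 of 6 samples, by 0.88 (SD 0.43, 1.85-fold). In an exact two-sided sign-flip permutation test each of these differences had p = 0.0313, the smallest value that 6 samples allow. Oprm1 was above Oprl1 in 5 of 6 samples, by 0.77 (SD 0.81, exact permutation p = 0.0625), and Oprl1 was above Pnoc in 5 of 6, by 1.29 (SD 0.90, exact permutation p = 0.0625). Pnoc lies near the pseudocount, which sets the size of its difference from Oprl1 (0.38 with a pseudocount of 1 and 1.84 with 0.01). Those last pairs of neighbours did not pass the test, and after Benjamini-Hochberg adjustment over the 4 pairs every exact permutation p was 0.0625. The FPKM of a gene depends on the exon length used in the counting, which the methods do not give, and Oprm1 has 31 annotated transcripts against 1 for Oprd1.

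Expressed as shares of the summed receptor FPKM, Oprd1 made up 66.3% to 88.2% of the receptor level in a sample. The sum of the 4 receptors was 11.5, 9.22 and 12.0 FPKM in PND, and 7.66, 12.6 and 12.3 FPKM in CON. CON replicate 2 stood apart in its makeup, with 88.2% Oprd1 and only 4.67% Oprk1. In the other 5 samples the share of Oprd1 was 66.3% to 72.8% and that of Oprk1 was 15.7% to 21.4%. Oprm1 took 3.47% to 11.5% and Oprl1 took 1.70% to 6.61%.

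**Figure D3:**
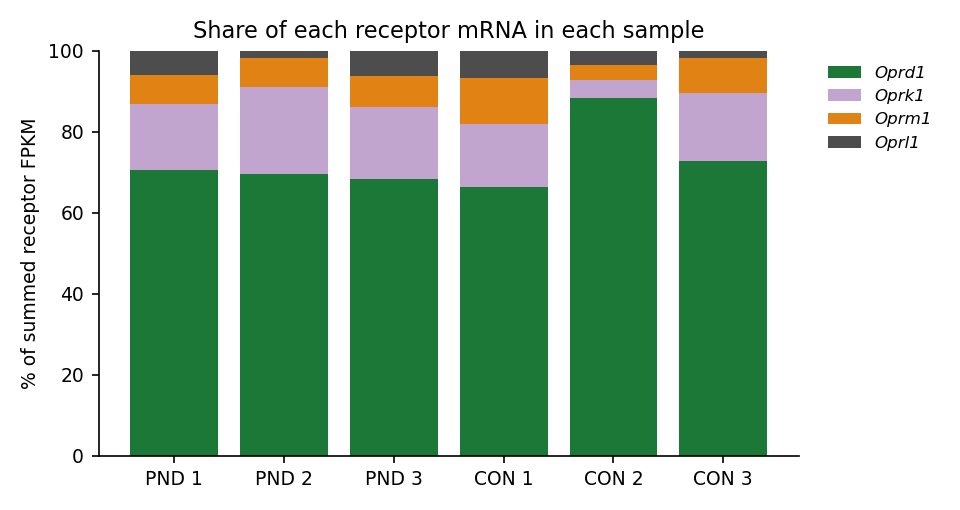
Share of the summed receptor FPKM (percent) taken by each of the 4 receptor genes in each animal. Oprd1 takes the largest share in all 6 samples, and CON replicate 2 has the largest Oprd1 share (88.2%) and the smallest Oprk1 share (4.67%).

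The differences between animals of one group were next set beside other measures of the same samples. Striatal marker genes were used because the striatum, which lies next to the frontal cortex and is rich in opioid receptors, could enter a dissection. All 12 markers of the list were detected. Their summed level was 166 to 186 FPKM in PND and 110 to 237 FPKM in CON, lowest in CON replicate 2 and highest in CON replicate 3. Of the 12 markers, 10 had a positive log2 fold change (median 0.12, against 0.01 for all genes), and 1 had an unadjusted p below 0.05 (against 3.13% of all genes), Pde10a, a phosphodiesterase of striatal projection neurons (13.1 ± 2.73 FPKM in PND against 8.52 ± 2.21 in CON, SD, n = 3 each, limma adjusted p = 0.9999).

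The members were then set beside the striatal markers sample by sample. These relations were not among the planned tests, and the adjustment covers only the striatal markers and the GC-rich genes. Other marker lists were not correlated with the members. Of these, the claustrum list was also lowest in CON replicate 2 (mean log2 deviation -0.24), where the glutamate neuron list was highest (0.23). Over the 6 samples the correlation of Oprk1 with the mean striatal marker level was r = 0.90 (exact permutation p = 0.0056, adjusted over 10 relations 0.0556), with a Spearman rho of 0.89 (exact permutation p = 0.0333, adjusted 0.194). Without the 2 samples farthest from the median, CON replicates 2 and 3, r was 0.83. For Oprm1 the correlation was r = 0.89 (exact permutation p = 0.0236, adjusted 0.0787) with a rho of 0.83 (exact permutation p = 0.0583, adjusted 0.194). Without CON replicates 2 and 3, r fell to 0.28, so the relation of Oprm1 rested on those samples. Pnoc, at 1 to 3 fragments per sample, had r = -0.80 (exact permutation p = 0.0569, adjusted 0.142) and a rho of -0.77 (exact permutation p = 0.103, adjusted 0.257), with r = -0.74 without the same samples. Oprl1 had r = -0.20 (exact permutation p = 0.706, adjusted 0.784) and a rho of 0.14 (exact permutation p = 0.803, adjusted 0.892), with r = 0.32 without them. With the striatal marker level as a covariate, an alternative added after the data were seen, the log2 fold change was 0.49 for Oprk1 and -0.12 for Oprm1, and no member had an unadjusted p below 0.05. The part of the striatal markers in these values was not tested.

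For Oprd1 the correlation with the striatal markers was r = -0.10 (exact permutation p = 0.871, adjusted 0.871) with a rho of 0.14 (exact permutation p = 0.803, adjusted 0.892), and without CON replicates 2 and 3 r was 0.81, so this value rested on those samples as well. Oprd1 was also set beside the level of GC-rich genes. The annotated sequence of Oprd1 has a GC content of 54.9%, higher than that of 80.9% of the genes tested. Among genes averaging 1 FPKM or more, the 1233 with the highest GC content (56.6% to 70.7%, the top decile) had a median log2 deviation of 0.49 from the average sample in CON replicate 2, and of -0.56 in CON replicate 1. Oprd1 was likewise highest in CON replicate 2 and lowest in CON replicate 1. Over the 6 samples r was 0.90 (exact permutation p = 0.0181, adjusted 0.0787) and rho was 0.83 (exact permutation p = 0.0583, adjusted 0.194), and without CON replicates 1 and 2 r was 0.62. For the other members r with the GC-rich genes was -0.39 (Oprm1, exact permutation p = 0.458, adjusted 0.764), -0.26 (Oprk1, exact permutation p = 0.646, adjusted 0.784), 0.41 (Oprl1, exact permutation p = 0.403, adjusted 0.764) and -0.23 (Pnoc, exact permutation p = 0.638, adjusted 0.784). Their rho was -0.26, -0.03, 0.37 and -0.26 in the same order (exact permutation p = 0.658, 1.0, 0.497 and 0.658, adjusted 0.892, 1.0, 0.892 and 0.892). Without CON replicates 1 and 2, r was 0.48 for Oprm1, 0.47 for Oprk1, 0.89 for Oprl1 and -0.83 for Pnoc, so these values depended on those samples. None of the 10 relations passed after adjustment. With a GC correction of every sample the log2 fold change of Oprd1 was -0.14, against -0.08 without it, and it did not pass the test.

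**Figure D4:**
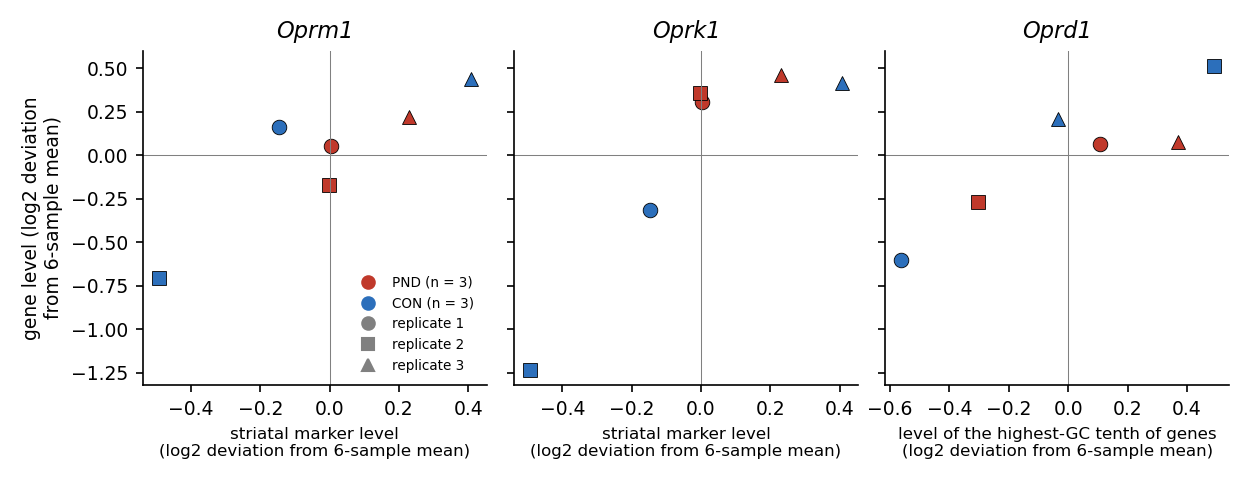
Level of Oprm1 and Oprk1 against the striatal marker level, and of Oprd1 against the level of the highest GC decile of genes, each as the log2 deviation of a sample from the mean of the 6 samples, with 1 point per animal, colour for the group and marker shape for the replicate number. CON replicate 2 is lowest on both axes for Oprm1 and Oprk1, while for Oprd1 it is highest on both and CON replicate 1 is lowest on both.

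Genes next to the members in the annotation were measured as well. Ipcef1 overlaps Oprm1 on the opposite strand over 96 exon bases and lay at 18.3 to 26.9 FPKM (log2 fold change -0.25). The use of strand in counting was not given, so fragments in that overlap cannot be assigned to either gene. Gm37711, an unspliced transcript model on the strand of Oprd1 that starts 1363 bases beyond its 3′ end, measured 6.85, 5.06 and 7.37 FPKM in PND and 4.35, 8.77 and 6.84 FPKM in CON (log2 fold change -0.01). As for Oprd1, its lowest value was in CON replicate 1 and its highest in CON replicate 2.

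The genes whose profile over the 6 samples was most like that of a member were taken from those with a mean of at least 1 FPKM, by Pearson's r. For Oprd1 they were 5830417I10Rik (r = 0.996), Nt5c (r = 0.995) and Kif13b (r = 0.995), and 234 genes had an r of at least 0.95. For Oprk1 they were Hmces (r = 0.995), Ano2 (r = 0.985) and Scg2 (r = 0.984), and 17 genes reached 0.95. For Oprm1 they were Lrrc1 (r = 0.990), Dchs2 (r = 0.986) and Rarb (r = 0.985), and 21 genes reached 0.95. Rarb, a retinoic acid receptor gene, is also 1 of the 12 striatal markers. For Oprl1 they were Ikbkb (r = 0.987), Setmar (r = 0.985) and Ccndbp1 (r = 0.984), with 29 genes at 0.95 or above. Pnoc was most like Uprt (r = 0.986), Rasal2 (r = 0.983) and Gm13483 (r = 0.982), with 9 genes at 0.95 or above, on a profile of 1 to 3 fragments per sample. These values describe 6 samples of 2 groups, and with this many genes compared high values arise often.

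The peptides that act on the classical receptors come from 3 other precursors. Penk, the enkephalin precursor, measured 82.6, 120 and 109 FPKM in PND, and 107, 50.0 and 147 FPKM in CON. CON replicate 2 was the lowest and CON replicate 3 the highest, as for Oprm1 and the striatal markers. The log2 fold change of Penk was 0.15 (SE 0.37, exact permutation p = 0.8), with means of 104 ± 19.1 FPKM in PND against 101 ± 48.6 in CON (SD, n = 3 each). Pdyn, the dynorphin precursor, measured 9.95, 9.78 and 12.7 FPKM in PND, and 9.15, 7.30 and 10.2 FPKM in CON, with groups that overlapped (log2 fold change 0.28, SE 0.17, exact permutation p = 0.3). Pomc, the precursor of beta-endorphin, was listed at 0 in 4 of the 6 samples and at 0.225 FPKM in PND replicate 1 and 0.276 FPKM in CON replicate 3, under the filter.

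The wider set of genes that make, degrade and relay opioid peptides was described by 7 lists, with 59 genes in the files and 58 tested. None was higher and 1 was lower at an unadjusted p below 0.05 in limma (background 3.13%), none passed the cut-off, and the median log2 fold change was 0.02, against 0.01 for all genes. The gene that was lower was Pcsk1, prohormone convertase 1, which cuts peptide precursors at basic pairs such as those beside the stretches printed above. It measured 13.7, 11.6 and 12.2 FPKM in PND, and 13.9, 18.1 and 15.9 FPKM in CON. All PND values lay below all CON values, as was the case, in either direction, for 7.66% of all genes. The mean was 12.5 ± 1.07 FPKM in PND against 16 ± 2.09 in CON (SD, n = 3 each), and the log2 fold change was -0.35 (SE 0.14, limma adjusted p = 0.9999).

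By role, the median log2 fold change was 0.22 for the other precursors (2 tested), 0.02 for the processing enzymes and their helpers (7) and 0.02 for the peptidases that degrade opioid peptides (7). It was -0.07 for the inhibitory G-protein alpha subunits (5), 0.02 for the effector channels and adenylyl cyclases (13), and 0.01 for the receptor kinases, arrestins and RGS proteins (15). Among the other opioid-binding or receptor-associated proteins (9 tested) the median was -0.12, with values from -0.77 to 0.78, none of which had an unadjusted p below 0.05.

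**Figure D5:**
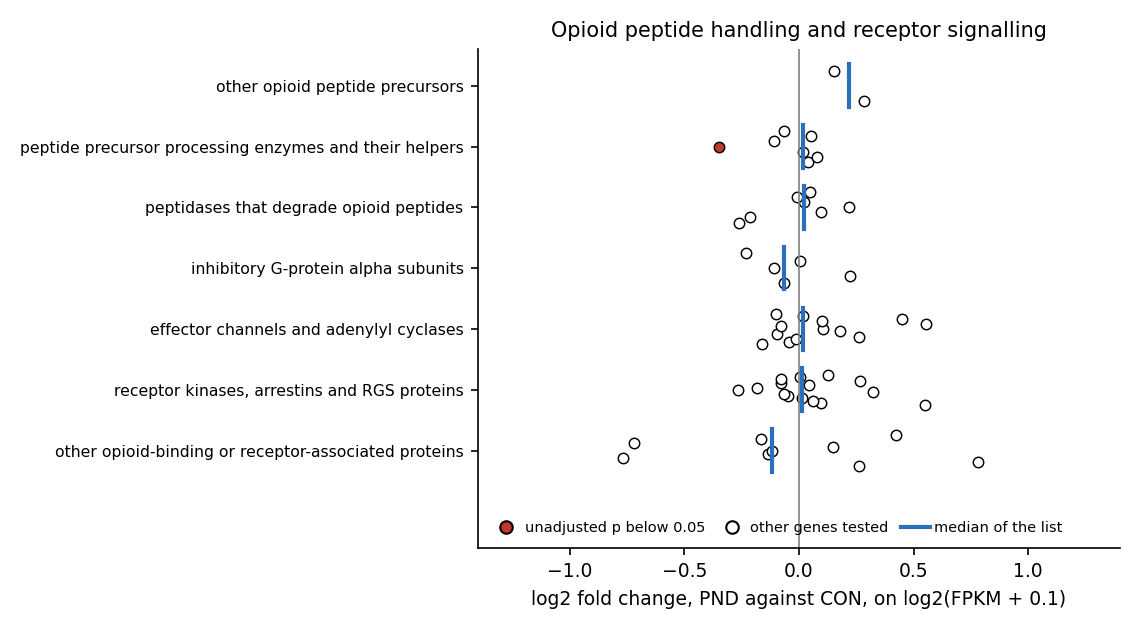
Log2 fold change of PND against CON for the genes of 7 lists around the opioid receptors, 1 point per gene tested, with the median of each list as a bar. Pcsk1 is the only gene with an unadjusted p below 0.05 (filled point), and no gene lies beyond 1 in either direction.

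The tissue was checked by marker lists of cortical cells and of neighbouring regions. Summed marker levels of glutamate neurons were 252 to 295 FPKM in PND and 237 to 362 FPKM in CON, and those of GABA interneurons were 283 to 306 FPKM in PND and 267 to 294 FPKM in CON. Over the 18 lists together 156 genes were tested, 3 of them higher and 6 lower at an unadjusted p below 0.05 (over all 18185 genes 315 were higher and 254 lower, 3.13%), and each of these 9 had an adjusted p of 0.9999 in limma. Of the interneuron markers these included Dlx1, a transcription factor of interneurons (0.177 ± 0.075 FPKM in PND against 1.01 ± 0.678 in CON, past the cut-off), while 15 of the 20 markers of that list had a positive log2 fold change (median 0.11). Of the glial markers, Gfap of astrocytes was higher (21.8 ± 3.65 FPKM against 13.6 ± 1.10), P2ry12 of microglia was lower (5.49 ± 1.37 FPKM against 9.27 ± 1.50), and Aqp4 and Opalin were lower by log2 fold changes of -0.36 and -0.78. The astrocyte list had 5 positive and 3 negative log2 fold changes (median 0.04), the microglia list likewise 5 and 3 (median 0.10), and the oligodendrocyte list 2 and 6 (median -0.21). Clic6 of the choroid plexus was higher by 0.80 on the log2 scale, in a list with 4 genes tested and a median of 0.44. The lists of claustrum, hypothalamus and septum, endothelium and blood genes held none at an unadjusted p below 0.05 in limma. Their medians were 0.09 (8 genes tested), 0.56 (8), 0.14 (6) and 1.0 (3). The summed blood level was 3.23 FPKM in PND replicate 1 and 0.346 to 0.787 FPKM in the other samples, so that median rested on 1 sample.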

How the data were processed

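Per the study's methods, the authors depleted ribosomal RNA, sequenced on an Illumina HiSeq instrument, filtered reads with Seqtk, aligned them with HISAT2, counted fragments with StringTie, scaled them by TMM and deposited FPKM per gene and animal. The genome build, annotation and use of strand are not given in the sources used here, beyond the submitters' processing notes, which name Bowtie 0.12.2 and the builds mm8 and mm9 without a role. One title field gives another age than the age label, and the label was used.

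PND (n = 3) was compared with CON (n = 3) in limma 3.58.1 (R 4.3.3; lmFit, eBayes with intensity trend, two-sided) on log2(FPKM + 0.1), which understates changes of low genes. The filter on low values (a mean over all samples of 0.1 FPKM or more) left 18185 genes, and p-values were adjusted by Benjamini-Hochberg over all of them. Each sample was 1 animal. Symbols matched 20866 of 21006 identifiers. Fragments were estimated from steps in the low values and exon lengths of GENCODE M21 (GRCm38): 41.6% to 44.7% of low values fell within 0.05 of a whole fragment (10% without steps). A level of 3 fragments was the floor. Coding sequences were aligned with MAFFT 7.526. On simulated fragments for 17809 genes with 193 changed 4-fold, the fit recovered 183 (94.8%) and called 176 unchanged genes. The simulated dispersion was 0.02. The recovered share therefore does not give the power for the members at their own spread and depth.

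The members and lists were chosen with earlier results of these data known. Named genes were all members, Penk, Pdyn and Pomc, annotated neighbours, the 3 most similar profiles per member, and list genes with an unadjusted p below 0.05, of which 1 is not reported here. Alternatives were other pseudocounts, filters, normalizations, a GC correction, voom, a replicate block and leaving out each animal.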

Additional observations from a re-analysis of the deposited data

How the results depend on the processing

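Of the 18 alternatives to the comparison of all genes, 15 gave a count of genes past the cut-off within 1.5 times the 241 reported. The count was 59 with a mean of at least 1 FPKM, 25 with a pseudocount of 1, and between 240 and 402 with 1 animal left out, 402 being the value without CON replicate 2. Quantile normalization gave 240 genes, 124 higher and 116 lower, against 153 and 88 as reported. Without PND replicate 3 the split was 115 higher and 125 lower, and without CON replicate 2 it was 297 and 105. In the other fits with 1 animal left out, more genes were higher than lower. The number of members past the cut-off was 0, and between 0 and 1 with 1 animal left out, the 1 being Oprk1 without CON replicate 3. With 1 animal left out the log2 fold changes ran from 0.32 to 1.15 for Oprk1 (1.15 without CON replicate 3), -0.27 to 0.30 for Oprm1, -0.40 to 0.15 for Oprd1, -0.063 to 0.79 for Oprl1, and -0.30 to 0.14 for the fitted values of Pnoc, whose fragments lie at the floor. With the striatal marker level as a covariate, chosen after seeing the data, the value was -0.12 for Oprm1 and 0.070 for Pnoc. The cause was not tested. Over the other alternatives Oprk1 stayed between 0.44 and 0.84, with an unadjusted p between 0.0396 and 0.138. Only the GC correction with replicate block gave an unadjusted p below 0.05, at a log2 fold change of 0.80, which is under the cut-off. The filter at a mean of 1 FPKM gave no value for Oprm1, Oprl1 and Pnoc. The exact permutation calls on the order of member levels were the same with pseudocounts of 1 and 0.01, but a pseudocount of 1 lowered the differences to 0.52 (Oprk1 over Oprm1), 0.31 (Oprm1 over Oprl1) and 0.38 (Oprl1 over Pnoc). The number of list genes with an unadjusted p below 0.05, 9 as reported, ran from 6 with the replicate block to 13 without CON replicate 1. Same-numbered animals were not paired: their deviations correlated at -0.05, -0.45 and 0.03, and a fit with the replicate number as a block gave 226 genes past the cut-off, 361 with an unadjusted p below 0.05 and 0 with an adjusted p below 0.05. Depth limits Pnoc (1 to 3 fragments per sample) and Oprl1 (from 4.65 fragments).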
